A study of Mus musculus with 24 samples.

Results

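The limb muscle precursor genes described here are Pax3, Pax7, Lbx1, Met, Hgf, Eya1, Myf5, Myod1 and Myog. They were picked by name, as genes of the cells that enter the limb to form muscle, of the signal that draws them in, and of the muscle program that follows. A gene was taken from probe sets listed with 1 gene symbol, and the brightest over all arrays was kept. Each of the 9 genes had 1 such probe set, and together they make up 9 of the 19937 genes measured. RNA came from the left and right hindlimb buds of 12 Nipbl+/- and 12 wild type mouse embryos at E10.5, with 1 Affymetrix Mouse Gene 1.0 ST array per embryo. The study describes the embryos as littermates, stage-matched within a narrow range of somite stages. Nipbl+/- embryos (RRS strain) carry 1 mutant allele of Nipbl, the gene of the cohesin loader, in every tissue, and wild type embryos carry none. Whole buds were taken, so muscle precursors were measured together with the far more abundant mesenchyme and with ectoderm, vessels and blood. In such bulk RNA, fewer cells of a type and less RNA per cell cannot be told apart.

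Limb muscle does not come from the limb bud mesenchyme itself. Its precursors arise in the lateral dermomyotome of the somites, express the paired box factor Pax3, the homeobox factor Lbx1 and the receptor tyrosine kinase Met, and leave the somite for the limb when the mesenchyme there secretes Hgf, the ligand of Met. In the bud the same cells later switch on Myf5 and Myod1, which commit them to muscle, and then Myog, which drives differentiation.

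The 250 bases before the transcript start are given for Myog and Myf5, a differentiation gene and a commitment gene. They are shown because, as measured, Myog moved with contractile genes across embryos and Myf5 moved with a different gene group. The Myog relation has limits that are given below. Myod1, which had no promoter entry, moved with the mean of the contractile genes more closely as measured (r = 0.83, beside 0.74 for Myog). Of the 9 genes, 5 (Pax7, Met, Hgf, Myf5 and Myog) had an entry in the RefSeq promoter table (GRCm38.p6). Capitals mark matches to CANNTG, the E-box bound by myogenic factors. This motif reads the same on both strands, and no matches overlapped.
Myog promoter, chr1:134289754-134290003, plus strand: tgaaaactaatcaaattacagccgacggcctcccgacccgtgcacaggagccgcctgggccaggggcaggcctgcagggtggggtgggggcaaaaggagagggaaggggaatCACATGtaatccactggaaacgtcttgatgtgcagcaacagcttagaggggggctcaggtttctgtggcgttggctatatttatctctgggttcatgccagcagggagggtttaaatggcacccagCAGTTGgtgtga
Myf5 promoter, chr10:107486135-107486384, minus strand: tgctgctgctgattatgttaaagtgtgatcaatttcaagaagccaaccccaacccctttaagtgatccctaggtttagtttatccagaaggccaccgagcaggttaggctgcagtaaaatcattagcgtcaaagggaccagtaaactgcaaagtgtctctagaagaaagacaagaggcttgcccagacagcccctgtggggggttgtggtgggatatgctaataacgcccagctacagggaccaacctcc
The Myog window held 2 matches, starting at positions -138 and -12 from the transcript start, and the Myf5 window held 0. Among 32851 promoter windows of this length, 66.22% held 1 or more and 31.81% held 2 or more. A match is a description of the sequence and not a measured binding site.

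Signals of different probe sets differ in probe affinity, so levels are compared between embryos and not between genes. Array medians lay between 7.24 and 7.39 on the log2 scale, and no pair of arrays was identical. Nipbl itself was measured at 9.54 to 9.97 in Nipbl+/- buds and at 10.32 to 10.72 in wild type buds (log2 intensity), so every embryo matched its label. The hindlimb markers Tbx4 and Pitx1 were strong in both genotypes, with mean log2 intensities of 11.70 ± 0.092 and 11.47 ± 0.094 in Nipbl+/- buds and 11.71 ± 0.076 and 11.54 ± 0.090 in wild type buds (SD, n = 12 each). Over all genes, 57 were higher and 105 were lower in Nipbl+/- buds at a limma adjusted p under 0.05.

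None of the 9 muscle precursor genes passed the test of a difference between the genotypes, and the ratios lay between 0.927 for Myod1 and 1.15 for Hgf. With limma, 0 of 9 passed an adjusted p of 0.05, where 0.813% of all genes did (0.286% higher and 0.527% lower). Before adjustment, 3 of 9 had a p under 0.05 (Pax3, Hgf and Eya1), all higher in Nipbl+/- buds, beside 9.26% of all genes in either direction (4.13% higher and 5.14% lower). The groups overlapped for each of the 9 genes, and over all genes 0.0552% did not overlap. The median log2 difference (Nipbl+/- minus wild type) of the 9 genes was 0.050, beside -0.0049 for all genes. Marks of embryo sex leaned male in Nipbl+/- buds. The ratio was 0.146 for Xist, a mark of females (limma adjusted p = 0.381), and 4.15 for the Y-linked Uty (limma adjusted p = 0.335). With a sex covariate the log2 difference of Pax3 went from 0.14 to 0.10 and that of Eya1 from 0.12 to 0.085. That of Hgf went from 0.21 to 0.22.

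**Figure D1:**
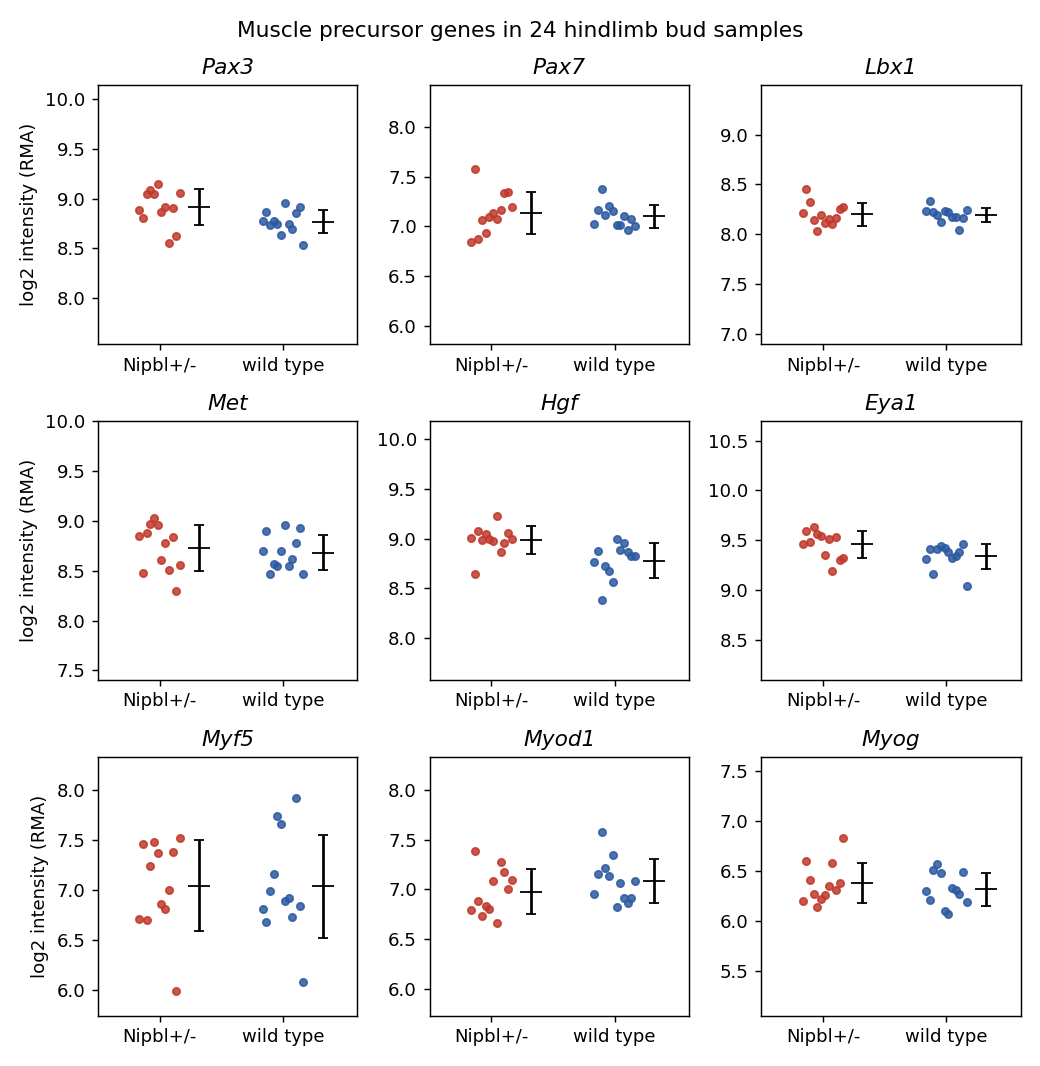
Log2 intensity of each of the 9 genes in every embryo, Nipbl+/- left of wild type in each panel, with points for embryos and lines for the mean and SD (n = 12 each). The genotypes overlap in every panel, and Myf5 spreads most, between 5.98 and 7.92.

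The precursor genes come first. Pax3, the factor that specifies the migrating precursors, had a lowest, median and highest log2 intensity of 8.56, 8.91 and 9.15 in Nipbl+/- buds and of 8.53, 8.76 and 8.96 in wild type buds. Nipbl+/- embryos lay somewhat higher, and 10 of 12 were above the wild type mean. The ratio was 1.10 (95% CI 1.01 to 1.20, limma adjusted p = 0.420), so Pax3 did not pass the test. Lbx1, which precursors need to migrate into the limb, had 8.03, 8.18 and 8.46 in Nipbl+/- buds and 8.04, 8.21 and 8.33 in wild type buds. The distributions lay on top of each other, with 5 of 12 Nipbl+/- embryos above the wild type mean. Its ratio was 1.004, with the narrowest interval of the 9 genes (95% CI 0.947 to 1.06, limma adjusted p = 0.993).

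Met, the receptor for Hgf, ranged over 8.30, 8.81 and 9.04 in Nipbl+/- buds and over 8.47, 8.66 and 8.96 in wild type buds (lowest, median and highest log2 intensity). The lowest and the highest embryo were both Nipbl+/-. Its ratio was 1.03 (95% CI 0.925 to 1.16, limma adjusted p = 0.947). Pax7, the close relative of Pax3 that later marks muscle stem cells, ranged over 6.85, 7.12 and 7.58 in Nipbl+/- buds and over 6.97, 7.09 and 7.38 in wild type buds. The median differed little and 6 of 12 Nipbl+/- embryos were above the wild type mean (ratio 1.02, 95% CI 0.932 to 1.12, limma adjusted p = 0.963).

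Hgf, the ligand made by limb mesenchyme, came closest to a difference. It had 8.64, 8.995 and 9.23 in Nipbl+/- buds and 8.39, 8.83 and 8.998 in wild type buds (lowest, median and highest log2 intensity). The Nipbl+/- median was about as high as the highest wild type embryo, and 11 of 12 Nipbl+/- embryos were above the wild type mean. The log2 difference was 0.21 ± 0.061 (SE), a ratio of 1.15 (95% CI 1.06 to 1.26, limma adjusted p = 0.138). Without Nipbl+/- replicate 2 the log2 difference was 0.24 and the limma adjusted p was 0.0352. Hgf also passed with array weights (limma adjusted p = 0.0163). A fit that held the leading residual component as a covariate gave a limma adjusted p of 0.00291. That component was taken from values centred within genotype, so the log2 difference stayed at 0.21 and only the error could change. This smaller p is therefore not a separate sign of a difference. Over the other alternatives and the embryos left out, the adjusted p of Hgf reached 0.242.

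Eya1, a transcriptional cofactor that acts upstream of Pax3 and the myogenic factors, had 9.19, 9.50 and 9.63 in Nipbl+/- buds and 9.04, 9.38 and 9.46 in wild type buds. The Nipbl+/- median was above the highest wild type embryo, yet the groups overlapped and 9 of 12 Nipbl+/- embryos were above the wild type mean (ratio 1.08, 95% CI 1.01 to 1.17, limma adjusted p = 0.463).

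Among the myogenic factors, Myf5 had a lowest, median and highest log2 intensity of 5.98, 7.11 and 7.52 in Nipbl+/- buds and of 6.07, 6.91 and 7.92 in wild type buds. Both genotypes spanned nearly the whole range. The ratio was 1.004 with the widest interval of the 9 genes (95% CI 0.776 to 1.298, limma adjusted p = 0.997). Myod1 had 6.67, 6.94 and 7.39 in Nipbl+/- buds and 6.82, 7.08 and 7.58 in wild type buds (ratio 0.927, 95% CI 0.821 to 1.05, limma adjusted p = 0.790). It was the single gene of the 9 with a ratio under 1, and 4 of 12 Nipbl+/- embryos were above the wild type mean. Myog had 6.14, 6.33 and 6.84 in Nipbl+/- buds and 6.07, 6.30 and 6.57 in wild type buds (ratio 1.04, 95% CI 0.944 to 1.15, limma adjusted p = 0.898). The highest Myog value belonged to Nipbl+/- replicate 12.

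**Figure D2:**
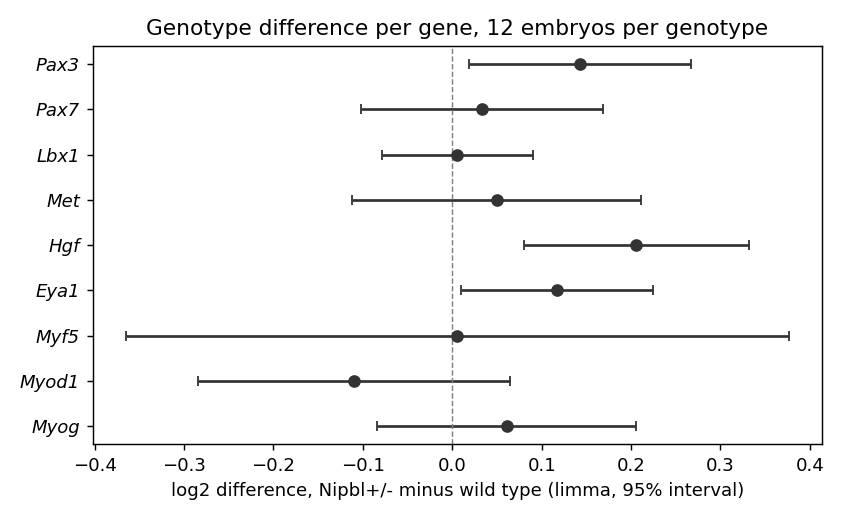
Log2 difference, Nipbl+/- minus wild type, of each of the 9 genes, with points for the limma estimate and bars for its 95% interval (n = 12 each). Hgf lies highest at 0.21, Lbx1 has the narrowest interval and Myf5 the widest, from -0.37 to 0.38.

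To set early against late genes within an embryo, the mean of Myf5, Myod1 and Myog was subtracted from the mean of Pax3, Pax7, Lbx1 and Met (log2 scale). The lowest, median and highest differences were 1.12, 1.501 and 1.68 in Nipbl+/- buds and 1.04, 1.42 and 1.70 in wild type buds. With Myf5 left out of the late genes they were 1.15, 1.601 and 1.84 in Nipbl+/- buds and 1.16, 1.499 and 1.85 in wild type buds. The genotypes covered nearly the same span both ways. This score is a description and was not tested.

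Other genes of the muscle program did not pass the test either. Of 17 other muscle regulators measured, limma called 0, and 3 were lower at a p under 0.05 before adjustment, as were 5.14% of all genes. Their median log2 difference was -0.032. Eya4, a relative of Eya1, was nearest, with a ratio of 0.811 (log2 difference -0.30 ± 0.079 SE, limma adjusted p = 0.0688) and 12 of 12 Nipbl+/- embryos below the wild type mean. Cxcr4, a chemokine receptor of migrating precursors, had a ratio of 0.915 (limma adjusted p = 0.447). Of 33 contractile and fusion genes, 0 passed in either direction, also at an unadjusted p, and their median log2 difference was 0.018. Unc45b, a myosin chaperone, had a ratio of 0.920 and Klhl41, a sarcomere protein, of 1.09. Of 11 partners of Met signalling, 0 passed and 2 were higher at an unadjusted p, beside 4.13% of all genes. These were Ptpn11 (ratio 1.06), the phosphatase Shp2, and St14 (ratio 1.10), a protease that activates pro-Hgf.

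Markers of the other cells of the bud were read in the same test, which called 0.813% of all genes. The calls were Lhx9 among 8 limb mesenchyme genes (ratio 1.11, limma adjusted p = 0.00698) and Erbb3 among 6 neural crest and Schwann genes (ratio 1.19, limma adjusted p = 0.0499), both higher in 12 of 12 Nipbl+/- embryos than the wild type mean. In the macrophage list 0 of 11 passed and 6 were lower at an unadjusted p, where 5.14% of all genes were. The median log2 difference was -0.13, with ratios of 0.848 for C1qb and 0.915 for Csf1r. In the somite and sclerotome list 0 of 9 passed and 2 were lower at an unadjusted p, beside the same 5.14% of all genes. The median log2 difference was -0.059 (ratio 0.816 for Foxc2 and 0.799 for Tbx18). The mean level of this list had a lowest, median and highest log2 intensity of 7.49, 7.59 and 7.84 in Nipbl+/- buds and of 7.56, 7.67 and 7.86 in wild type buds. Of 11 ectoderm, 10 endothelium, 8 erythroid and 13 neural tube genes, 0 passed. The smallest p were those of Epcam (ratio 1.11) and Esrp1 (1.07) in ectoderm, Egfl7 (1.04) and Cdh5 (0.978) in endothelium, Gata1 (0.875) and Hbb-bh1 (0.934) in erythroid cells, and Dcx (0.839) and Tubb3 (1.103) in neural tube and neurons. The part of these cells in the values of the 9 genes was not tested.

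The 9 genes differed widely in how much embryos of 1 genotype varied. Each gene's SD within genotype was ranked among genes of similar mean intensity. Myf5 stood at percentile 99.7, with an SD of 0.490 on the log2 scale and a 3.84-fold span over the 24 embryos. Myod1 stood at percentile 90.9 (SD 0.224) and Met at percentile 90.0 (SD 0.206). Myog, Hgf, Pax3, Pax7 and Eya1 stood between percentiles 61.8 and 70.7. Lbx1 stood lowest, at percentile 11.9, with an SD of 0.0950 and a 1.34-fold span. Lbx1 and Met, both marks of migrating precursors, lay far apart in this ranking.

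Covariation across embryos asks whether genes of the same cells rise and fall together from bud to bud. Values were centred within genotype, and each p is from a permutation test (two-sided, 24 embryos), adjusted over the 36 pairs. Of these, 14 passed at an unadjusted p, and 5 positive and 6 negative pairs passed after adjustment.

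A large array-wide pattern ran through these data. The first residual principal component held 34.3% of the variance within genotypes and the second 10.3%. It followed the mean of 1027 olfactory receptor genes, which serve the sense of smell (r = 0.95 across arrays). This mean had a lowest, median and highest log2 intensity of 4.54, 4.60 and 4.81 in Nipbl+/- buds and of 4.56, 4.62 and 4.78 in wild type buds. The highest arrays were Nipbl+/- replicate 2 and wild type replicate 3. Myod1 followed this mean most closely (r = 0.88, rho = 0.83, permutation p adjusted over 18 relations = 6.0e-05), within Nipbl+/- embryos (r = 0.83) and within wild type embryos (r = 0.95), and without the 2 farthest embryos (r = 0.82). Pax7 also rose with it (r = 0.81, rho = 0.75, permutation adjusted p = 9.0e-05) and Hgf ran opposite (r = -0.82, rho = -0.67, permutation adjusted p = 6.0e-05), with r = 0.61 for Pax7 and -0.59 for Hgf without the 2 farthest embryos. Met (r = -0.58, rho = -0.71, permutation adjusted p = 0.00763) and Myog (r = 0.52, rho = 0.47, permutation adjusted p = 0.0250) followed it less closely. For Lbx1, Pax3, Myf5 and Eya1 r did not pass, with adjusted p from 0.0510 to 0.455, though by rank Pax3 did (rho = -0.56, permutation adjusted p = 0.0116). Against the component itself, Pax3 (r = -0.49, permutation adjusted p = 0.0314) and Lbx1 (r = 0.48, permutation adjusted p = 0.0327) passed too, Lbx1 with r = 0.17 without the 2 farthest embryos. For most relations below, the value with the first component removed from every gene is therefore also given.

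Pax3, Met and Eya1 moved together. Pax3 and Met, the factor and the receptor of the migrating precursors, were the closest positive pair (r = 0.78, rho = 0.80, permutation p = 3.0e-05, adjusted p = 3.6e-04). The relation was alike within Nipbl+/- embryos (r = 0.77) and within wild type embryos (r = 0.80). It was r = 0.73 without the 2 farthest embryos and r = 0.70 with the component removed (permutation adjusted p = 0.00936). Met and Eya1 had r = 0.64 (rho = 0.58, permutation p = 0.00106, adjusted p = 0.00763), with 0.68 within Nipbl+/- and 0.60 within wild type embryos. Without the 2 farthest embryos this was 0.60, and with the component removed 0.64 (permutation adjusted p = 0.0146). Centring on replicate numbers as well, which leaves 12 differences of same-numbered embryos to permute, gave 0.65. This did not pass (permutation adjusted p = 0.0728). Pax3 and Eya1 had r = 0.63 (rho = 0.47, permutation p = 0.00153, adjusted p = 0.00918), with 0.66 within Nipbl+/- and 0.62 within wild type embryos. It was the loosest of these pairs, with r = 0.46 without the 2 farthest embryos, a rho that did not pass (permutation adjusted p = 0.0772), and r = 0.60 with the component removed (permutation adjusted p = 0.0358). These 3 pairs were the ones that passed with the component removed.

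Lbx1 did not move with them. It had r = -0.065 with Pax3 (permutation adjusted p = 0.832), r = -0.24 with Met (permutation adjusted p = 0.400) and r = 0.0039 with Eya1 (permutation adjusted p = 0.986). With the component removed these values were 0.23, 0.090 and 0.15. Lbx1 also varied least of the 9 genes.

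The other pairs lost their call with the component removed. Pax7 and Myod1 had r = 0.75 (rho = 0.72, permutation adjusted p = 3.6e-04), and 0.10 with the component removed. Hgf and Myod1 had the strongest value of all pairs (r = -0.85, rho = -0.73, permutation adjusted p = 3.6e-04), and -0.46 with the component removed (permutation adjusted p = 0.153). The pairs of Pax7 with Hgf (r = -0.65, rho = -0.54) and Met with Myod1 (r = -0.61, rho = -0.64) had -0.066 and -0.087. Those of Pax7 with Met (r = -0.56, rho = -0.55), Met with Myog (r = -0.54, rho = -0.57) and Pax3 with Myod1 (r = -0.51, rho = -0.55) had -0.15, -0.28 and -0.17. Hgf and its receptor Met had r = 0.42, which did not pass (permutation adjusted p = 0.103), and -0.19 with the component removed. Eya1 and Myf5 had r = 0.51 (rho = 0.43, permutation adjusted p = 0.0434), and 0.56 with the component removed (permutation adjusted p = 0.0536). This call was also lost when any of 11 embryos was left out. As measured, the 3 myogenic factors were not called as pairs with each other. Myf5 had r = 0.15 with Myod1 and 0.15 with Myog, and Myod1 had r = 0.47 with Myog (permutation adjusted p = 0.0666). With the component removed these values were 0.15, 0.12 and -0.22. Centring on replicate numbers as well gave 0.76 for Myf5 with Myog, which passed (permutation adjusted p = 0.0247).

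**Figure D3:**
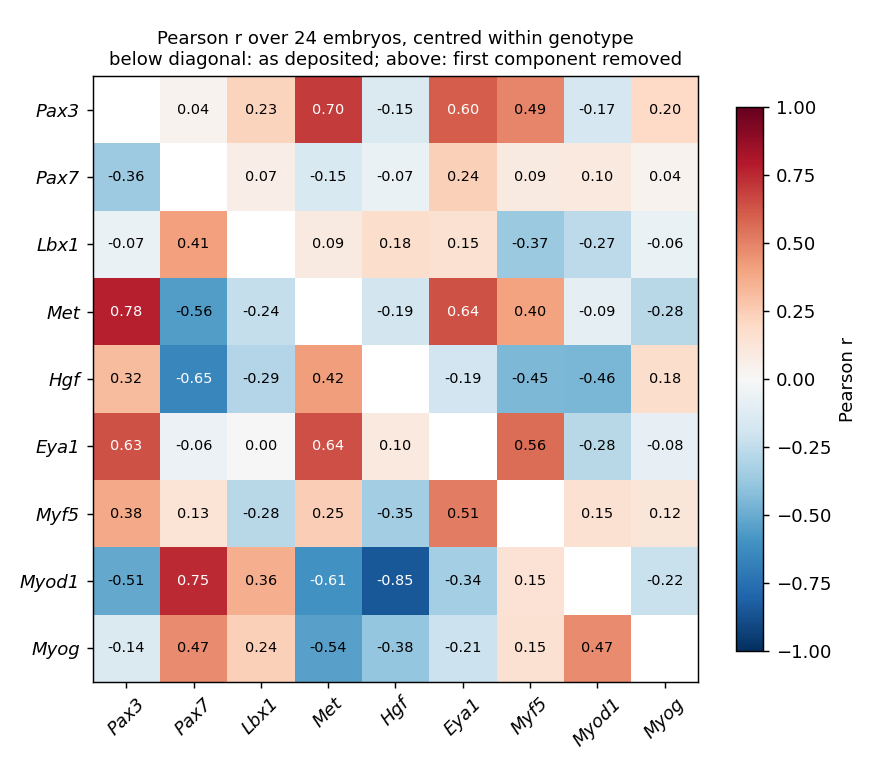
Pearson r across 24 embryos (values centred within genotype) for the 36 pairs of genes, as measured and with the first residual component removed. The block of Pax3, Met and Eya1 keeps values of 0.60 to 0.70 with the component removed, whereas Hgf with Myod1 goes to -0.46 and Pax7 with Myod1 to 0.10.

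Myf5, the most variable of the 9 genes, moved with the means of the other muscle regulators and of the somite and sclerotome genes. Each gene was set against the mean of each marker list and against Hoxa13 and Hoxd13, which mark progress of the distal limb, in 108 relations. Of these, 27 passed, 7 passed with the component removed, and 5 passed both ways. Called only with the component removed were Pax3 (r = 0.64, permutation adjusted p = 0.0194) and Eya1 (r = 0.61, permutation adjusted p = 0.0410), both with the other muscle regulators. As measured these had r = 0.42 (permutation adjusted p = 0.119) and 0.51 (permutation adjusted p = 0.0541). Myf5 held 4 of the 5 called both ways. It followed the mean of the other muscle regulators (r = 0.75, rho = 0.77, permutation p = 2.0e-05, adjusted p = 7.2e-04), with 0.76 within Nipbl+/- and 0.75 within wild type embryos, 0.79 without the 2 farthest embryos and 0.75 with the component removed. It followed the somite and sclerotome mean less closely (r = 0.63, rho = 0.72, permutation adjusted p = 0.00828), with 0.66 within Nipbl+/- and 0.62 within wild type embryos, 0.71 without the 2 farthest embryos and 0.66 with the component removed. With the mean of contractile genes it did not pass (permutation adjusted p = 0.708). Nor did Myf5 pass with the neural tube and neuron mean (r = 0.48, permutation adjusted p = 0.0682). With the component removed that relation had r = 0.58 (permutation adjusted p = 0.0520) and rho = 0.61 (permutation adjusted p = 0.0348).

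Single genes of these lists are named here after their values were seen. Meox2, a homeobox factor of limb muscle precursors, had r = 0.70 with Myf5. Dmrt2, a dermomyotome factor, had r = 0.64 and Eya2, a relative of Eya1, had r = 0.63. With the component removed these were 0.75, 0.64 and 0.62. Of 17 regulators, 12 were positive with Myf5, with a median r of 0.28. The lowest were Mef2d (r = -0.38) and Mef2a (r = -0.28). In the somite list 9 of 9 were positive, with a median r of 0.19. The highest were Pax1 (r = 0.57), a sclerotome factor, and Tbx18 (r = 0.55), with 0.58 and 0.67 after removal of the component. Single genes of other lists reached like values. Krt14 of the ectoderm list had r = 0.82 (6 of 11 genes positive) and Dcx of the neural tube list had r = 0.61 (8 of 13 positive).

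Myf5 also rose with Hoxa13 (r = 0.69, rho = 0.65, permutation p = 3.5e-04, adjusted p = 0.00307) and with Hoxd13 (r = 0.69, rho = 0.60, permutation p = 3.1e-04, adjusted p = 0.00304). For Hoxa13 the relation was r = 0.37 within Nipbl+/- embryos and 0.98 within wild type embryos, and for Hoxd13 0.39 and 0.88. The difference between genotypes was not tested. Hoxd13 was itself lower in Nipbl+/- buds (ratio 0.653, limma adjusted p = 0.00163). Hoxa13 had a ratio of 0.725, which did not pass (limma adjusted p = 0.314). The study reports both Hox genes as reduced in Nipbl+/- limb buds. Its own array result for Hoxa13 was of weak significance too, and its Q-RT-PCR gave larger decreases for both genes. Nipbl+/- replicate 12 had the highest Nipbl+/- Myf5 value (7.52), and without it r with Hoxa13 was 0.76 within Nipbl+/- embryos and 0.89 over both genotypes. Without Nipbl+/- replicate 11, which had the lowest Myf5 value (5.98), r within Nipbl+/- embryos was 0.091, so the Nipbl+/- value rests on single embryos. Leaving out 1 wild type embryo gave 0.97 to 0.99 within wild type embryos. Without the 2 embryos farthest in Myf5, r was 0.60 for Hoxa13 and 0.66 for Hoxd13, and with the component removed it was 0.72 and 0.79. Centring on replicate numbers as well gave 0.38 for Hoxa13 and 0.28 for Hoxd13, which did not pass (permutation adjusted p = 0.440 and 0.569). Eya1 with Hoxa13 was the remaining relation called both ways (r = 0.67, rho = 0.60, permutation adjusted p = 0.00432), with 0.74 within Nipbl+/- and 0.59 within wild type embryos, 0.58 without the 2 farthest embryos, 0.65 with the component removed and 0.40 after centring on replicate numbers (permutation adjusted p = 0.440).

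**Figure D4:**
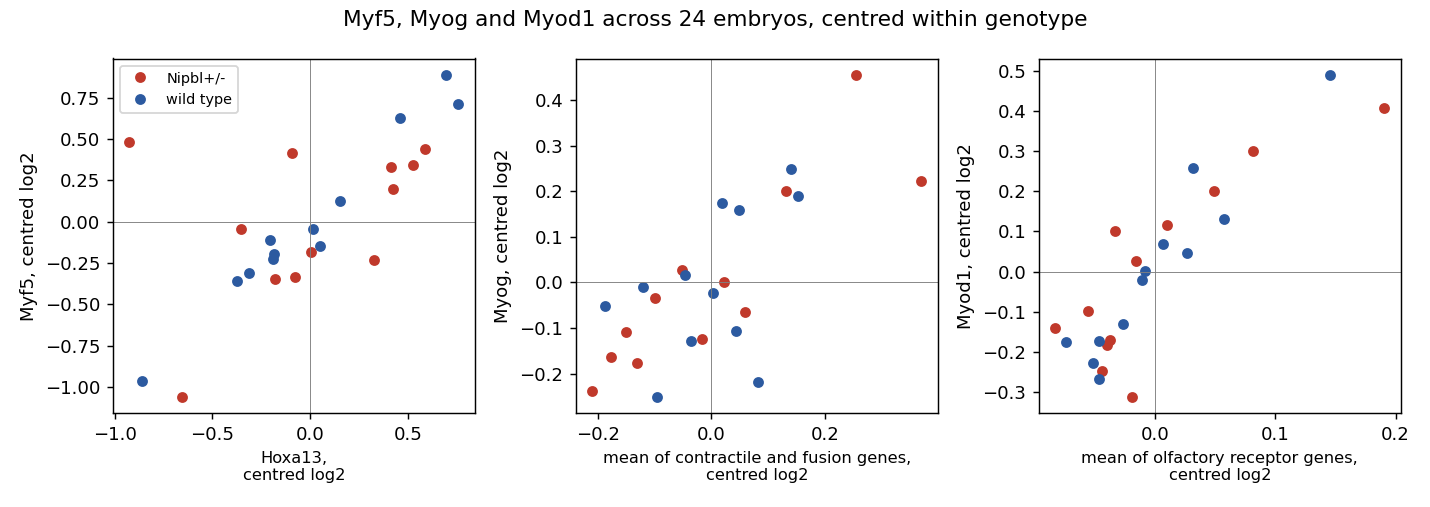
Myf5 against Hoxa13, Myog against the mean of the contractile genes and Myod1 against the mean of the olfactory receptor genes (log2 intensity), 1 point per embryo, Nipbl+/- and wild type marked apart. For Myf5 and Hoxa13, r is 0.37 over the Nipbl+/- embryos (0.76 without replicate 12) and 0.98 over the wild type embryos.

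Myog moved with the genes of the contractile apparatus. Its r with their mean was 0.74 (rho = 0.65, permutation p = 1.0e-04, adjusted p = 0.00189), with 0.87 within Nipbl+/- and 0.49 within wild type embryos, a difference that was not tested, and 0.66 without the 2 farthest embryos. All 33 contractile genes were positive with Myog, with a median r of 0.54. Cardiac alpha actin Actc1, the first sarcomeric actin of embryonic muscle, had r = 0.79, titin (Ttn) had 0.75 and embryonic myosin Myh3 had 0.73. With the component removed the relation to the mean did not pass (r = 0.59, permutation adjusted p = 0.0963, and rho = 0.23, permutation adjusted p = 0.674). Of the 33 genes 27 were then positive with a median r of 0.26, and Actc1, Ttn and Myh3 had 0.72, 0.59 and 0.58. Myod1 gave the larger values as measured, with 33 of 33 contractile genes positive at a median r of 0.73 and r = 0.83 with their mean (rho = 0.86, permutation adjusted p = 5.4e-04). With the component removed 20 of 33 were positive, the median r was 0.054 and r with the mean was -0.00090. As measured Myod1 was also called with means of lists outside muscle. These were endothelium (r = -0.85), neural tube and neurons (r = 0.71) and neural crest and Schwann genes (r = 0.60). With the component removed these had r = -0.34, 0.20 and 0.20, and none passed. Myog also followed the somite and sclerotome mean (r = 0.64, rho = 0.54, permutation adjusted p = 0.0107). This was 0.53 with the component removed (permutation adjusted p = 0.0963, rho = 0.41) and 0.52 without Nipbl+/- replicate 12 (permutation adjusted p = 0.0513).

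The genes whose pattern over the 24 embryos was most like that of each member are given as a description, by Pearson r on centred values. For Pax3 they were Met (0.78), Btbd11 (0.78) and Slit2 (0.77), so before removal of the component Met was the gene most like Pax3 among all genes. For Myf5 they were Islr (0.86), Krt14 (0.82) and Gjb6 (0.81), and for Myog they were Hivep3 (0.82), Actc1 (0.79) and Pcp4 (0.78). Lbx1 was most like 5033430I15Rik (0.82), Bmp7 (0.81) and Il18bp (0.81), and Met was most like Slc35d2 (0.83), Dgcr2 (0.82) and Khnyn (0.81). Eya1 was most like Agbl5 (0.87), Acadvl (0.85) and Ppp4r1l-ps (0.85). The 3 genes that followed the olfactory receptor mean most closely had the highest values. Myod1 was most like Galr3, Clpsl2 and Pitx3 (0.94 each), Hgf was most like Kif24 (0.91), Ttc37 (0.91) and Clasp2 (0.90), and Pax7 was most like Dleu7 (0.88), Cacna1s (0.87) and Baiap3 (0.87). With the component removed, Islr (0.88) was still the gene most like Myf5, and Actc1 (0.72) was still among the 3 most like Myog. Those most like Pax3 were then A130051J06Rik (0.79), Btbd11 (0.73) and Palld (0.73), and Met (0.70) was no longer among them.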

How the data were processed

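The deposited values are log2 intensities per probe set. The authors made them from 24 array files in GenePattern (Expression File Creator), and RMA is named in the submitters' processing notes, its version not given in the sources used here. RMA subtracts background, quantile-normalizes the arrays and summarises probes. Such normalization can hide a shift shared by most genes. Of 28159 probe sets, 21640 had 1 gene symbol, 1321 had several and 5198 had none listed. For each gene the brightest probe set was kept, and 21553 matched RefSeq by Entrez ID. Genotypes (12 embryos each) were compared with limma 3.58.1 (lmFit, eBayes) in R 4.3.3. Differences are Nipbl+/- minus wild type, and p-values were adjusted by Benjamini-Hochberg over 19937 genes, with a threshold of 0.05. The study's methods name the Comparative Markers Selection module. Correlations used values centred within genotype and 100000 shuffles of embryos within genotype (Python 3.11.15, scipy 1.17.1), and figures used matplotlib 3.10.9. The number of arrays limits the precision. Scripts were tested on simulated data.

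By rule, the genes named are the 9 members, Nipbl, every list gene past the threshold or otherwise the 2 with the smallest p, and the 3 genes most like each member. Tbx4 and Pitx1 were added as a check of the tissue, Xist and Uty as marks of embryo sex, and Hoxa13 and Hoxd13 as genes set against each member. Single list genes given by their r with Myf5 or Myog were picked after their values were seen. Members and lists were chosen with earlier results of these data known. Removal of the first component, the olfactory receptor mean, leaving out embryos from the list relations and the comparison of same-numbered embryos, and leaving out embryos within a genotype, were chosen after seeing the data. Other alternatives were the mean of a gene's probe sets, a filter on dim genes, trended robust variance, Welch's test on linear values, array weights, the replicate number as a block, a sex covariate, median centring and leaving out each embryo.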

Additional observations from a re-analysis of the deposited data

How the results depend on the processing

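Under the 9 alternatives to the genotype comparison, none of the 9 genes was called except Hgf, and 0 were called lower. Array weights gave 1 member called higher and 101 genes higher and 180 lower over the array. The first residual component gave 1 member called higher and 222 genes higher and 293 lower. This component was taken from values centred within genotype, so the log2 differences stayed as they were and only the error could change. The sex covariate gave 30 genes higher, with a limma adjusted p of 0.740 for Pax3, 0.775 for Eya1 and 0.170 for Hgf. Leaving out 1 embryo gave 36 to 72 genes higher (36 without wild type replicate 4 or 5, 37 without replicate 6) and 74 to 149 lower, with 0 to 1 member higher (1 without Nipbl+/- replicate 2) and 0 lower. Log2 differences near 0 changed sign: Myf5 was -0.021 with Welch's test on linear values, -0.021 with array weights and -0.098 with the sex covariate, and Pax7 was -0.00075 and Lbx1 -0.0037 with array weights. Leaving out 1 embryo gave -0.082 to 0.10 for Myf5, -0.018 to 0.021 for Lbx1 and -0.0068 to 0.060 for Pax7.

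With the first component removed, 3 positive and 0 negative pairs and 7 positive and 0 negative list relations passed. Signs changed for Pax7 with endothelium (0.013), Met with endothelium (-0.040), Hgf with contractile genes (0.15), Hgf with limb mesenchyme (-0.038) and Myod1 with contractile genes (-0.00090). Leaving out 1 embryo gave 4 to 6 positive and 3 to 6 negative pairs (3 without wild type replicate 7 or Nipbl+/- replicate 2 or 5), and 13 to 19 positive and 5 to 11 negative list relations (5 without Nipbl+/- replicate 5). The cause of these changes was not tested.

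Replicate numbers are shared between the genotypes. Deviations of same-numbered embryos correlated at -0.355 to 0.282, over 0.1 in 5 of 12 pairs, and 1 of 12 Nipbl+/- embryos correlated best with its own number, so the numbers were not taken as pairs over all genes. These deviations still held the first component, and pairing with the component removed was not tested. The study describes the embryos as stage-matched littermates, but the labels do not say what a number marks or which embryos shared a litter. The main limma test therefore held no litter term. Hoxa13 and Hoxd13 are exceptions to the lack of pairing (given under the other observations). The replicate block left 0 members called (48 genes higher and 121 lower, limma adjusted p of Hgf = 0.230), with 4 positive and 4 negative pairs and 12 positive and 6 negative list relations. For correlations the block left 12 differences of same-numbered embryos to permute. Pairs that lost their call were Met with Eya1 (r = 0.65, permutation adjusted p = 0.0728), Pax3 with Myod1 (-0.69, 0.0565), Met with Myog (-0.42, 0.329) and Eya1 with Myf5 (0.36, 0.420). Met with Eya1 and Pax3 with Myod1 were no weaker than over 24 embryos (r = 0.64 and -0.51). Myf5 with Myog was newly called (0.76, 0.0247). Of the 27 list relations 12 lost their call, among them those of Myf5 and Eya1 with Hoxa13 and Hoxd13. Lbx1 with Hoxd13 turned to 0.057. Newly called with the block were Pax3 with endothelium (r = 0.80), Hgf with neural crest and Schwann genes (r = -0.72) and Myog with the other muscle regulators (r = 0.78). Signal limits the dimmer genes most, with Myog at percentile 30.7 of mean intensity and Myod1, Myf5 and Pax7 at 41.9, 42.0 and 43.3.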

Other observations

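Although replicate numbers did not pair the embryos over all genes, same-numbered Nipbl+/- and wild type embryos were alike in the distal Hox genes across 12 pairs (Hoxa13 r = 0.84, rho = 0.81, permutation p = 5.7e-04, adjusted over 11 genes = 0.00627; Hoxd13 r = 0.77, rho = 0.76, permutation p = 0.00422, adjusted p = 0.0232). Of the 9 muscle precursor genes, Lbx1 had r = 0.68 (rho = 0.62, permutation p = 0.0192, adjusted p = 0.0705) and the others lay between -0.52 (Met) and 0.29 (Eya1), with none past the adjusted threshold. Lbx1 fell as Hoxd13 rose across embryos (r = -0.55, rho = -0.56, permutation adjusted p = 0.0151). This relation did not pass without Nipbl+/- replicate 5 (r = -0.48, permutation adjusted p = 0.0527) or with the first component removed (r = -0.45, permutation adjusted p = 0.108), and the replicate block turned it to 0.057.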
